A study of Ovis aries with 30 samples.

Results

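The mitochondrial ribosomal protein genes were taken from the gene table by name, as every row whose symbol is MRPL or MRPS followed by a number and, for a few, a letter A to C. The rule found 75 genes of 28524 rows. Of these, 50 code for proteins of the large subunit of the mitochondrial ribosome and 24 for proteins of the small subunit. The last is MRPS36, which carries the family name but belongs to another complex. RNAseq had been done on perirenal brown adipose tissue (BAT) and on thyroid tissue of 15 newborn Romney lambs. A Cold group (n = 6) was kept at 4 °C and an ambient-temperature (AT) group (n = 6) at 20 to 22 °C, each for 2 days. Control lambs (n = 3) were sampled within about 24 h after lambing as a baseline. The treated lambs were therefore about 2 days older than the Controls, so in any comparison with Control the treatment and the age cannot be told apart, and lambs of like age are compared in Cold against AT alone. No genotype beyond the breed was given for any group. The study left out 1 Control lamb, and the same 2 Control lambs (Controls 1 and 3) were used here unless all 3 are named.

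Mitochondria keep a small genome whose messenger RNAs code for core subunits of the respiratory chain and ATP synthase, and they translate these on a ribosome of their own. The RNA parts of that ribosome come from the mitochondrial genome, whereas its proteins are all coded in the nucleus, made in the cytosol and imported. Some of these proteins descend from those of bacterial ribosomes and others are found only in mitochondria. Brown fat is rich in mitochondria and oxidises fuel to make heat in the newborn, and the thyroid gland secretes the hormones that set metabolic rate.

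Counts per library summed to 31556500 to 37025998 in BAT and to 25062784 to 30124871 in thyroid tissue, and the members held 17709 to 43962 and 50311 to 82220 of them. In BAT an unnamed pair of genes (LOC114112617 and LOC114115287) took 43.8% to 76.5% of all counts, so shares below are given per 10000 counts outside that pair. Follicle cell markers of the thyroid (11 genes, among them TG, which codes for thyroglobulin) summed to 362.0 to 1543.6 per 10000 in thyroid tissue and to 0.412 to 2.69 in BAT. Of 10 brown adipocyte markers 9 had a row of that name, and ZIC1 among these had no count in any BAT library. The 9 summed to 22.6, 49.8 and 19.7 per 10000 in BAT Controls 1, 2 and 3. In the 12 treated BAT libraries they summed to 1.62 to 16, without overlap. A pair of thyroid libraries stood apart by 15 skeletal muscle markers, all of them detected. Their sum was 1137.6 per 10000 in AT 3 and 127.7 in Control 1, against 0.14 to 2.05 in the other 13 thyroid libraries, so the counts of members and of partner genes in thyroid tissue are also given without these libraries. In bulk tissue, fewer cells of a type and less RNA per cell cannot be told apart.

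Of the 75 members, 74 passed the filter on low counts (at least 10 reads in at least 10 libraries) in each tissue. The member that did not was MRPS26, with 0 to 4 reads per library in BAT and 2 to 8 in thyroid tissue. On the annotation, 99.2% of its length is shared with GNRH2 on the same strand. Another 3 mitochondrial ribosomal proteins, MRPL19, MRPS17 and MRPS35, had no row of that name and were not analysed here.

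The members spanned a wide range of levels, here given as normalized count per kb of gene length, averaged over 14 libraries of a tissue. In BAT the level ran from 78.7 to 1453.0 with a median of 271.4, an 18.5-fold range. In thyroid tissue it ran from 145.3 to 5559.3 with a median of 585.8, a 38.3-fold range. The tissues have separate scales, so these 2 medians are not to be set against each other. The order of members was alike in both tissues, with Spearman's rho of 0.88 and Pearson's r of log2 level of 0.87 over 74 genes, which are not independent replicates and share gene length and base composition between tissues.

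MRPL23, a protein of the region around the exit tunnel, had the highest level in BAT at 1453.0 ± 333.4 per kb (SD, n = 14) and the next to highest in thyroid tissue at 2033.7 ± 659.3. MRPS2, a small-subunit protein with a bacterial counterpart, followed in BAT at 1217.9 ± 311.1, and MRPL14, of the large subunit, at 893.9 ± 157.5. In thyroid tissue MRPS6, a small-subunit protein with a bacterial counterpart, led at 5559.3 ± 1220.0. It stood far above MRPL23, and MRPL41, a mitochondria-specific protein of the large subunit, came next at 1992.4 ± 581.4. Of the length of MRPS6 9.2% is shared with SLC5A3 on the same strand, and reads of the 2 genes cannot be told apart there.

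At the low end in BAT were MRPL44 at 78.7 ± 16.8, MRPL51 at 88.4 ± 21 and MRPS30 at 97.4 ± 19.2 per kb (SD, n = 14), all of them mitochondria-specific proteins of the large subunit despite the name of the last. In thyroid tissue the lowest were the small-subunit protein MRPS31 at 145.3 ± 70.1, MRPL51 at 153.9 ± 68.4 and MRPL1, of the mobile stalk of the large subunit, at 166.6 ± 77.4.

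**Figure D1:**
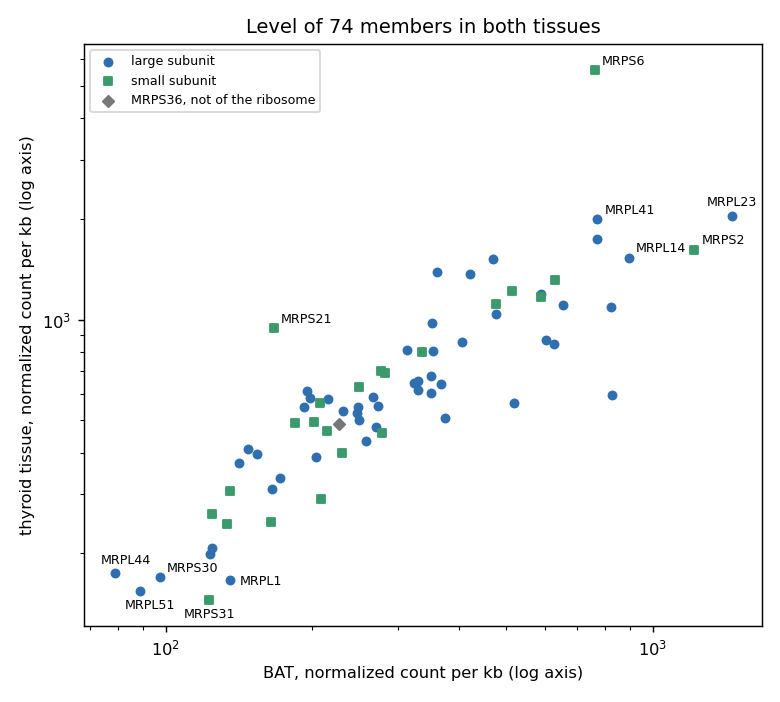
Level of the 74 tested members as normalized count per kb of gene length, BAT on the x axis and thyroid tissue on the y axis (both log axes, mean of 14 libraries each, scales set separately in each tissue). Circles are large-subunit genes, squares small-subunit genes and the diamond is MRPS36; most members lie along 1 band, while MRPS6 at 5559.3 and MRPS21 stand above it in thyroid tissue.

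In BAT few members passed the test after 2 days in the Cold. MRPL15, a large-subunit protein that binds ribosomal RNA, was the only member that passed the test. Its normalized counts were 516.1 and 599.9 in the Controls and 268.9, 307.8 and 400.8 (lowest, median and highest) in the Cold lambs. All 6 Cold lambs were below both Controls. The log2FC was -0.79 ± 0.18 (SE, adjusted p = 0.0389, edgeR quasi-likelihood test with Benjamini-Hochberg adjustment over 14905 genes). The third Control lamb stood higher, at 1036.8. With TMM scaling, which assumes that most genes do not change, the log2FC of MRPL15 was -0.66 and its adjusted p = 0.0736 in the same edgeR test, and 9 of 23 alternatives at the same threshold lost the call.

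Thus 1 of 74 members was lower and 0 were higher in BAT of Cold lambs, against 0.872% of all tested genes lower and 0.604% higher. A raw p under 0.05 was reached by 13 members, all lower. The median log2FC of the members was -0.25 against -0.10 for all tested genes, and 63 of 74 were negative. Of the 74, 54 lay below the median of all genes. For raw p and for signs the share of all genes is not given, here and below. With TMM scaling the medians were -0.13 and 0.02, so the members lay 0.15 below all genes with the reference genes and 0.14 below with TMM. DESeq2 called 4 members lower, against 3.23% of all genes. The sum of brown adipocyte markers was lower in every treated lamb as well, and its part in the members' values was not tested. The highest log2FC in this comparison was 0.25 ± 0.18 (SE) for MRPL9.

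In BAT of AT lambs, 2 members were lower than in the Controls and 0 were higher, where 6.1% of all tested genes were lower and 3.09% higher. MRPL20, a large-subunit protein that binds ribosomal RNA, and whose bacterial counterpart acts in assembly, had 510.8 and 560.9 normalized counts in the Controls and 266.0, 308.0 and 352.1 in the AT lambs. The groups did not overlap, and the Control lamb left out, at 495.9, was also above all AT lambs. The log2FC was -0.79 ± 0.17 (SE, adjusted p = 0.0117, edgeR), and with TMM scaling the adjusted p was 0.0345. In the Cold lambs MRPL20 had 300.9, 328.9 and 385.5, again below all 3 Controls, with a log2FC of -0.66 ± 0.17 (SE) and an adjusted p of 0.0614 (edgeR).

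MRPL15 was the other one, with 303.6, 343.8 and 367.7 normalized counts in the AT lambs and a log2FC of -0.71 ± 0.18 (SE, adjusted p = 0.0223, edgeR). Its adjusted p with TMM scaling was 0.0543. The 2 comparisons share their Control libraries. Over all members the median log2FC of AT against Control was -0.21 against -0.03 for all tested genes. Of the 74 members 51 were negative, and 50 lay below the median of all genes. A raw p under 0.05 was reached by 13 members that were lower and 1 that was higher.

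How many members were called in BAT depended on the Control lambs. With all 3 Controls, 4 members were lower in Cold and 6 in AT lambs, against 3.19% and 5.4% of all genes, and the member medians were -0.35 and -0.33 where those of all genes were 0.07 and 0.11. The members then lay 0.42 and 0.44 below all genes, further than in the fit with 2 Controls. With TMM scaling added, 10 and 21 members were lower, against 6.72% and 11.2% of all genes. With BAT Control 1 replaced by the third Control, the counts were 5 in Cold and 9 in AT lambs, against 4.39% and 5.52% of all genes. With Control 3 replaced they were 4 and 8, against 4.56% and 4.58%. The Cold count was 5 without AT 6, against 2.9% of all genes. It was 0 without any one of Cold 1, Cold 2, Cold 3, Cold 6, AT 3 or AT 5, against 0.299% to 0.623%. The third Control was unlike the others in cell markers as well, with an endothelial marker sum of 9.97 per 10000 against at least 44.7 in the other BAT libraries, and the highest sums of adipocyte (154 per 10000) and brown adipocyte markers (49.8). The part of this in the counts was not tested.

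In BAT 1 treated library, AT 6, had low values across the members with reference-gene scaling. It was the lowest of the 12 treated lambs for 38 of 74 members, and the share of all genes is not given here. It also had the lowest sum of brown adipocyte markers (1.62 per 10000, the next being 3.02) and of adipocyte markers (32.8, the next being 45.1) among the BAT libraries, whose part in the members' values was not tested. Its members summed to 21045.8 normalized counts, against 31091.4 to 35000.2 in the other AT lambs and 24444.8 to 32956.7 in the Cold lambs. Per 10000 counts outside the dominant pair, the members took 26.4 and 27.1 in the Controls, 21.2 to 28.6 in AT and 19.5 to 26.6 in Cold lambs, so that the groups overlapped on this scale. On it AT 6 had 21.23, AT 4 had 21.26 and Cold 1 had 19.5. With TMM the mean log2 count of the members was 8.13 in AT 6 and 8.1 in AT 4.

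**Figure D2:**
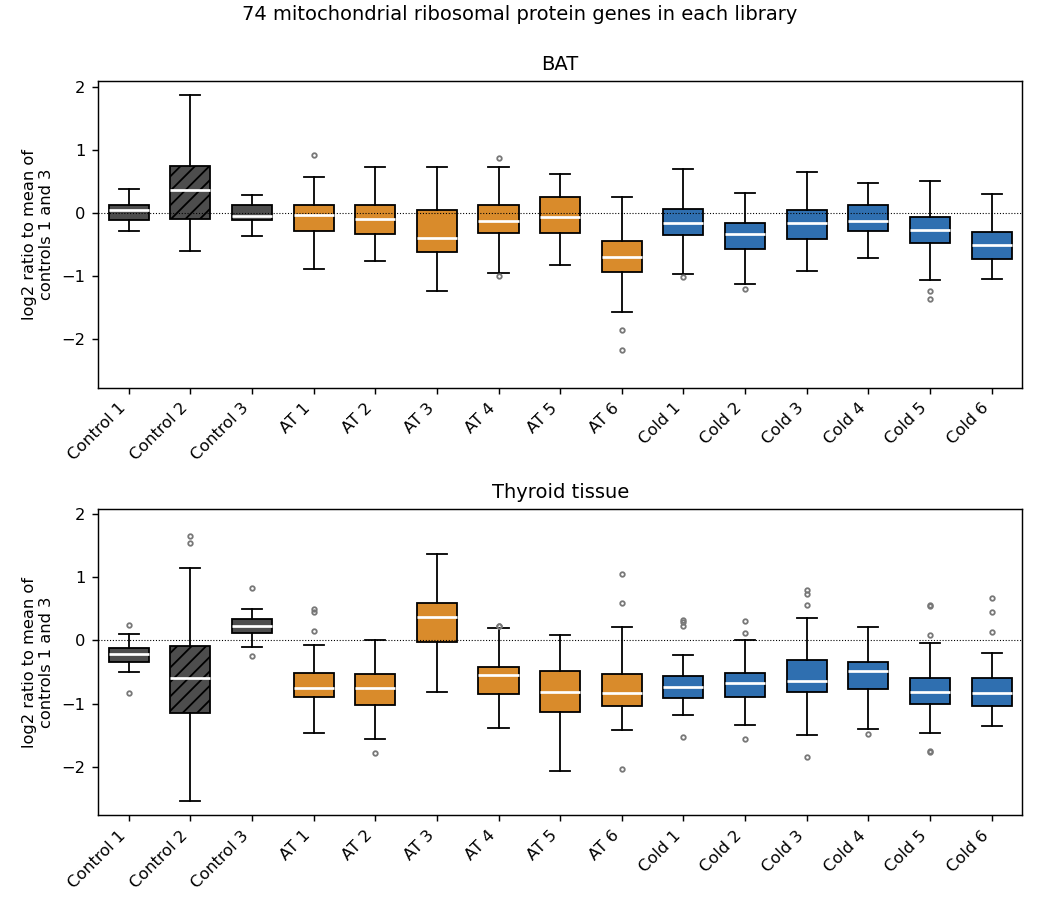
log2 ratio of each of the 74 members to its mean in Controls 1 and 3 (y axis), by library (x axis), in BAT above and thyroid tissue below. Boxes are quartiles over members, white lines medians, whiskers reach 1.5 interquartile ranges and points lie beyond; Control 2, hatched, was left out by the study. In thyroid tissue the medians of all treated libraries lie under 0 except AT 3, and in BAT the lowest box is AT 6.

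In thyroid tissue a larger number of members passed the test than in BAT, all of them lower. In Cold lambs 18 of 74 were lower and 0 were higher than in the Controls, against 16.9% of all 16122 tested genes lower and 2.36% higher. The member median log2FC was -0.72, and that of all tested genes -0.28. Of the 74 log2FCs 71 were negative, and 45 members had a raw p under 0.05, all lower. The median of all genes was itself negative, and 67 of the 74 lay below it. The shares of all genes negative or at a raw p under 0.05 are not given here. At a fold of at least 2, 8 members were lower, against 6.15% of all genes.

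With reference-gene scaling, markers of several cell types differed between treated and Control lambs in thyroid tissue. Of all tested genes, 16.9% were lower in Cold and 18.8% in AT lambs, and 2.36% and 2.24% were higher. All 9 endothelial markers had negative log2FCs, and 2 were lower in Cold and 3 in AT lambs. Of 9 macrophage and leukocyte markers 4 were higher in Cold lambs, with C1QA at 2.98 and AIF1 at 1.84, and in AT lambs 3 were higher and 1 lower. Of 10 follicle cell markers 2 were lower in Cold and 3 in AT lambs, among them SLC5A5, the iodide transporter, at -2.55 and -2.46. With TMM scaling the calls of SLC5A5 (adjusted p = 0.0972 in Cold and 0.124 in AT lambs) and of PECAM1 (0.0696 and 0.0934) were lost. CDH5 in Cold lambs (0.192) and CD14 in AT lambs (0.169) lost theirs too. Among the calls kept were those of C1QA and AIF1 in both comparisons and of TG in AT lambs (0.0405, all edgeR). Control 3 had the highest follicle marker sum, 1543.6 per 10000. The part of these in the members' values was not tested.

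MRPS25, a mitochondria-specific protein of the small subunit, had the most negative log2FC, -1.55 ± 0.47 (SE, adjusted p = 0.0345, edgeR). Its normalized counts were 350.7 and 1105.9 in the Controls and 172.7, 250.2 and 325.0 in the Cold lambs. The groups did not overlap, but the Controls were far apart, and the highest Cold lamb was close to the lower Control. With TMM scaling its log2FC was -1.18 (adjusted p = 0.111, edgeR).

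MRPL15 had 1780.8 and 2348.0 normalized counts in the Controls and 690.3, 793.9 and 895.9 in the Cold lambs, a clear gap. Its log2FC was -1.39 ± 0.38 (SE, adjusted p = 0.0216, edgeR). The third Control lamb, however, lay among the Cold lambs at 773.4.

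MRPS18B, a small-subunit protein, had 346.4 and 698.5 in the Controls and 177.2, 206.8 and 226.1 in the Cold lambs. Its log2FC was -1.36 ± 0.33 (SE, adjusted p = 0.0125, edgeR), and with TMM scaling it was -1.02 (adjusted p = 0.0437). All 6 Cold lambs were also below the third Control, at 232.5, though by little.

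MRPL27, which lies near the site of peptide bond formation, had the lowest adjusted p of the members, 0.00276 (edgeR), with a log2FC of -1.20 ± 0.20 (SE). Its counts were 841.5 and 1378.4 in the Controls and 379.6, 504.6 and 541.4 in the Cold lambs. The third Control, at 431.8, was inside the Cold range. MRPL12, of the stalk that recruits translation factors and also a binding partner of mitochondrial RNA polymerase, had 1425.7 and 2357.3 in the Controls and 758.9, 803.2 and 913.7 in the Cold lambs. Its log2FC was -1.20 ± 0.28 (SE, adjusted p = 0.0112, edgeR), and the third Control, at 1197.2, was above all Cold lambs. MRPL20 had 1094.5 and 1652.2 in the Controls and 593.3, 638.8 and 694.2 in the Cold lambs, with a log2FC of -1.08 ± 0.24 (SE, adjusted p = 0.00939, edgeR), while the third Control, at 570.9, was below all Cold lambs.

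The other called members were, in order of size, MRPS7 (-1.29), MRPL18 (-1.01), MRPL21 and MRPL43 (each -0.96), MRPL17 (-0.95), MRPL34 (-0.85), MRPS23 (-0.80), MRPL54 and MRPL57 (each -0.75), MRPL58 (-0.68), MRPS21 (-0.62) and MRPS6 (-0.59), as log2FC with reference-gene scaling. MRPL58 is a ribosome-bound hydrolase that can free a stalled peptide, and MRPL18 belongs to the region that holds the structural RNA of the large subunit. Of the length of MRPL43 33.4% overlaps TWNK, the mitochondrial DNA helicase, and whether counting used the strand was not given in the sources used here. Only MRPS21 and MRPL57 among the 18 overlapped between Cold and Control lambs.

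The members outside this direction were few. MRPL3 had a log2FC of 0.45, MRPL9 of 0.40 and MRPL10 of 0.11 in Cold lambs, with adjusted p of 0.315, 0.274 and 0.728 (edgeR). All 3 are large-subunit proteins with bacterial counterparts, and they are named here after their values were seen. Every Cold lamb was below both Controls for 53 of 74 members, and for 28.5% of all genes.

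Scaling changed the size of the difference from the Controls and the number of calls. The reference genes themselves had lower median shares in the 3 thyroid Controls than in Cold lambs. Per 10000 these were 18.3 and 23.6 for ACTB, 10.4 and 12.8 for RPL19, and 3.01 and 3.61 for HUWE1. Their size factors were 0.756 to 0.921 in Controls 1 and 3 and 0.996 to 1.18 in Cold lambs. The part of this in the members' values was not tested. With TMM, 4 members were lower in Cold lambs (MRPL12, MRPL20, MRPL27 and MRPS18B), against 4.99% of all genes. The member median was then -0.41 and that of all genes 0.02, so the members lay 0.42 below all genes under TMM and 0.44 below under the reference genes. Single libraries mattered too, and where Control 1 or Control 3 was left out the third Control took its place. The count of members lower was 8 without Control 3, against 10.6% of all genes. The member median was then -0.33 and that of all genes -0.05. The count was 10 without Cold 2 or Cold 5 (all genes 12.4% and 11.5%) and 11 without Cold 6 (12.3%). It was 56 without AT 3 (25.9%), a library that enters this comparison only through the shared estimate of the spread. Fitted on Cold and Control lambs alone, 51 members were lower, against 22.5% of all genes.

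**Figure D3:**
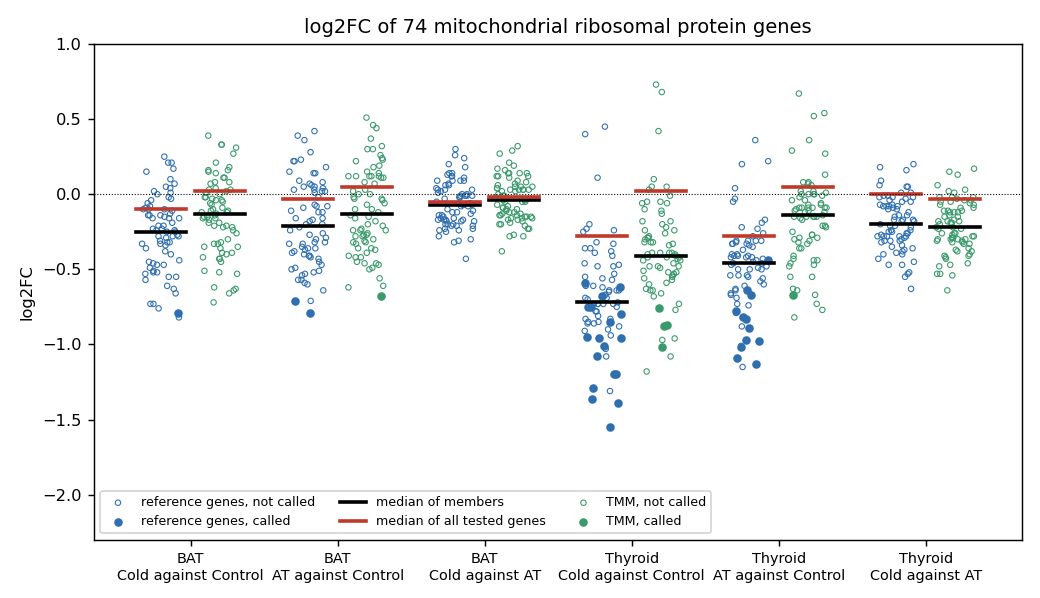
log2FC (y axis) of the 74 members in the 6 comparisons within a tissue (x axis), with reference-gene scaling (blue) and TMM scaling (green). Filled points passed an adjusted p of 0.05, black bars are member medians and red bars medians of all tested genes; in thyroid tissue of Cold lambs the bars stand at -0.72 and -0.28 with the reference genes and at -0.41 and 0.02 with TMM.

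In thyroid tissue of AT lambs, 12 of 74 members were lower and 0 were higher than in the Controls, against 18.8% of all tested genes lower and 2.24% higher. The members were thus called no more often than genes at large. The medians were -0.46 for the members and -0.28 for all genes, 70 members were negative, and 24 had a raw p under 0.05. Of the 74, 62 lay below the median of all genes. At a fold of at least 2, 3 members were lower, against 5.98% of all genes.

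MRPL27 was again lower, with 450.2, 524.1 and 713.6 normalized counts in the AT lambs and a log2FC of -1.02 ± 0.20 (SE, adjusted p = 0.00456, edgeR). It was the 1 member called with TMM scaling (-0.67, adjusted p = 0.0333), where 4.68% of all genes were called. MRPS21, a small-subunit protein with a bacterial counterpart, had 2203.2 and 3959.2 in the Controls and 1486.3, 1775.1 and 1904.7 in the AT lambs, with a log2FC of -0.82 ± 0.20 (SE, adjusted p = 0.0114, edgeR). The third Control was far below, at 982.1. MRPL54, a mitochondria-specific large-subunit protein, had 1047.8 and 1389.0 in the Controls and 548.6, 809.1 and 967.2 in the AT lambs, with a log2FC of -0.67 ± 0.22 (SE, adjusted p = 0.0426, edgeR), and the third Control stood with the others at 1138.7.

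MRPS6 did not overlap either, with 5974.3 and 8208.2 in the Controls and 3825.6, 4503.2 and 5287.5 in the AT lambs (log2FC -0.64). MRPL49 did not overlap at a log2FC of -0.44, but its call was lost in 25 of 27 alternatives, where its log2FC ran from -0.47 to 0.17. The other 7 called members overlapped with the Controls (MRPL12, MRPL15, MRPL18, MRPL20, MRPL34, MRPS18B and MRPS23). Every AT lamb was below both Controls for 6 of 74 members, against 21.7% of all genes.

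A single AT library, AT 3, stood high across the members. It was the highest of the 12 treated thyroid libraries for 63 of 74 members, and AT 3 or Control 3 was the highest of all 14 for 70. The members summed to 104067.8 normalized counts in AT 3 and to 55831.1 to 63896.4 in the other AT lambs. For MRPL15 it had 2123.2, against 487.1 to 867.7 in the other 5. AT 3 was also the library with the highest muscle markers (1137.6 per 10000) and the lowest follicle cell markers (362.0 per 10000); their part in the members' values was not tested.

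Without AT 3, 58 members were lower in AT lambs and 56 in Cold lambs, against 30% and 25.9% of all genes. The member medians were then -0.73 in both comparisons, against -0.34 and -0.29 for all genes. For the Cold lambs the log2FCs themselves hardly moved (median -0.72 before), and the median SE of a member fell from 0.29 to 0.19. In all 53 members were called in both comparisons, which share their Controls. The share of all genes called in both is not given here. With AT 3 left out and TMM scaling, 26 members were lower in Cold and 25 in AT lambs, against 10.3% and 11.8% of all genes.

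**Figure D4:**
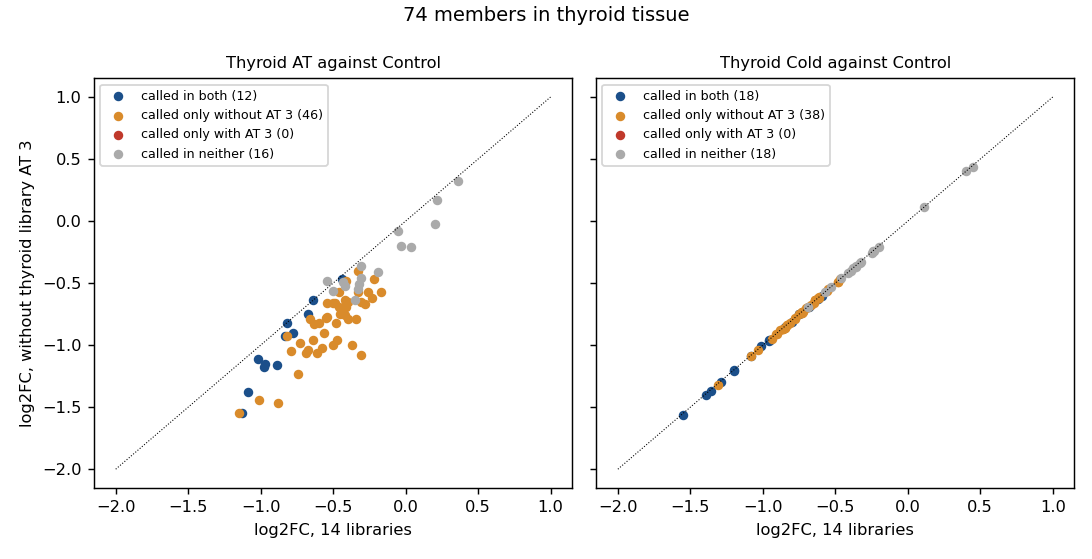
log2FC against Control of the 74 members in thyroid tissue with all 14 libraries (x axis) and without library AT 3 (y axis), for AT lambs on the left and Cold lambs on the right. The dotted line marks equal values; in AT lambs most points lie below it and 46 members were called only without AT 3, while in Cold lambs the points lie on it and 38 were called only without AT 3.

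Control 1 carried muscle transcripts as well, and the members stood higher in Control 3 than in Control 1 for 68 of 74. When both muscle-marked libraries were left out and the third Control took the place of Control 1, 30 members were lower in Cold lambs and 30 in AT lambs, against 18.9% of all genes in each. With TMM scaling on the same libraries, 21 and 16 members were lower, against 12.9% and 10.4%. The member medians were -0.63 and -0.64 with the reference genes.

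A set of 13 members was called in both comparisons and with both scalings on those libraries: MRPL12, MRPL21, MRPL23, MRPL24, MRPL38, MRPL40, MRPL41, MRPL55, MRPS15, MRPS18B, MRPS2, MRPS25 and MRPS31. It holds proteins of both subunits, among them MRPL23 and MRPL24 of the exit tunnel region. The share of all genes called in all of these settings jointly is not given here, so the 13 cannot be set against it. The set rests on the third Control, which stood apart by fat markers, with an adipocyte sum of 19.7 per 10000 against 1.87 to 7.04 and a brown adipocyte sum of 4.41 against at most 0.911 in the other thyroid libraries. This Control had high values for some of them, as 8396.5 normalized counts for MRPS2, 5231.8 for MRPL41 and 3031.8 for MRPL23. MRPL27 and MRPL20 were not in it, and for both the third Control had the lowest value of the 3.

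With all 3 Controls and AT 3 kept, 17 members were lower in Cold and 5 in AT lambs, against 14.4% and 13.7% of all genes. With all 3 Controls and no AT 3, the counts were 33 and 35, against 19% and 19.2%. Without Control 3 the AT count was 3, against 9.33% of all genes, and the member median was then -0.09 and that of all genes -0.02. Without Control 1 the AT count was 6, against 14.7%. Without AT 2, AT 5 or AT 6 it was 7, against 14.7%, 15.1% and 16.6%. No member was called higher than Control within a tissue in any setting tried.

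**Figure D5:**
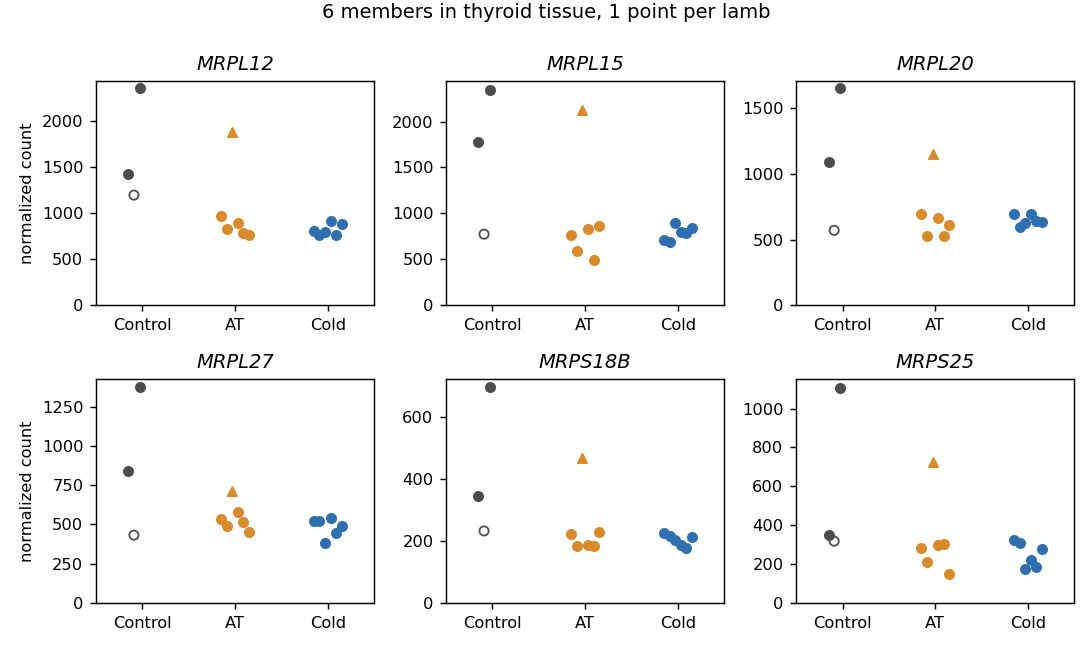
Normalized counts of 6 members in thyroid tissue (y axis, from 0), 1 point per lamb, by group (x axis). Filled grey points are Controls 1 and 3, the open point is the Control the study left out, and the triangle is AT 3; for MRPL12 the Cold lambs sit between 758.9 and 913.7, below all 3 Controls, and AT 3 stands at 1888.5.

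Counts and medians were near each other in both subunits. In Cold lambs 12 of 50 large-subunit and 6 of 23 small-subunit genes were lower in thyroid tissue, with medians of -0.71 and -0.73 log2FC. In AT lambs the counts were 8 of 50 and 4 of 23, with medians of -0.46 and -0.50. Without AT 3 they were 36 of 50 and 19 of 23 in Cold, and 38 of 50 and 19 of 23 in AT lambs. Members classed as having a bacterial counterpart and members classed as mitochondria-specific were also near each other. In Cold lambs 11 of 44 and 7 of 29 were lower (medians -0.71 and -0.72), and in AT lambs 8 of 44 and 4 of 29 (medians -0.43 and -0.48). MRPS18A and MRPS18B, although related to bacterial protein S18, were in the mitochondria-specific class. Of all tested genes, 16.9% were lower in Cold and 18.8% in AT lambs, and without AT 3 these shares were 25.9% and 30%. No difference between classes was tested.

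The summed counts of large-subunit genes were 2.19 to 2.75 times those of small-subunit genes in BAT and 1.88 to 2.07 times in thyroid tissue, without overlap. The ranges met once MRPS6 was left out, when the ratio was 2.39 to 3.0 in BAT and 2.4 to 2.65 in thyroid tissue.

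Of the 3 mammalian forms of bacterial protein S18, MRPS18B and MRPS18C sit in the small subunit and MRPS18A in the large one. Per kb of gene length, MRPS18C had the highest level, 692.9 ± 199.1 (SD, n = 14) in thyroid tissue, with 311.6 ± 106.6 for MRPS18A and 247.2 ± 136.5 for MRPS18B. In BAT the levels per kb were 282.6 ± 44.3 for MRPS18C, 165.6 ± 34.3 for MRPS18A and 164.6 ± 35.5 for MRPS18B, the last 2 within their spread. In the thyroid Controls MRPS18A had 941.4 and 1100.6 normalized counts, and 476.3, 595.6 and 749.7 in the Cold lambs, without overlap. Its log2FC was -0.78 ± 0.30 (SE) and its adjusted p of 0.0787 (edgeR) missed the threshold. In AT lambs its log2FC was -0.46, with an adjusted p of 0.284 (edgeR).

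MRPS18C had 448.5 and 431.2 in the thyroid Controls, 292.9, 299.8 and 366.5 in the Cold lambs, and 264.9, 326.0 and 671.8 in the AT lambs, the last being AT 3. Its log2FCs were -0.47 and -0.22, with adjusted p of 0.242 and 0.59 (edgeR). Without AT 3 all 3 forms were called in both comparisons. Their log2FCs in Cold and AT lambs were then -1.37 and -1.38 for MRPS18B, -0.78 and -0.69 for MRPS18A, and -0.47 for MRPS18C in each. The adjusted p of MRPS18C were 0.0447 and 0.0465, and 0.0708 and 0.0862 with both muscle-marked libraries left out (edgeR). On those libraries with TMM scaling, MRPS18A was called in Cold lambs (adjusted p = 0.0432) and not in AT lambs (0.117, both edgeR). In the BAT Controls MRPS18A had 542.9 and 383.8, MRPS18B 201.9 and 243.4 and MRPS18C 149.8 and 200.5, and none was called in BAT.

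MRPL12 in AT lambs had 759.6, 861.2 and 1888.5 normalized counts in thyroid tissue and a log2FC of -0.89 ± 0.28 (SE, adjusted p = 0.0386, edgeR). The highest of these, AT 3, lay between the Controls, and the other 5 AT lambs were below all 3 of them. In Cold lambs MRPL12 lost its call in 1 of 27 alternatives, against 2 for MRPS18B and 4 for MRPL27. The Cold calls lost most often were those of MRPS21 and MRPL43 (20 each) and MRPL57 (18). In AT lambs the call was lost in 16 of 27 alternatives for MRPL12, 12 for MRPS18B, 6 for MRPL27 and 21 for MRPL15. In BAT it had 1152.6 and 936.9 in the Controls, 535.5, 653.2 and 855.1 in the Cold lambs and 387.8, 895.5 and 1064.0 in the AT lambs, and it was not called.

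MRPS36 is a subunit of the α-ketoglutarate dehydrogenase complex of the citric acid cycle. In thyroid tissue it had 643.9 and 1168.1 in the Controls, 412.1, 499.5 and 576.7 in the Cold lambs and 323.2, 453.6 and 2236.5 in the AT lambs. The highest of these was AT 3, and the next AT lamb had 470.4. The log2FCs were -0.86 ± 0.57 and -0.31 ± 0.59 (SE), with adjusted p of 0.304 and 0.728 (edgeR). Without AT 3 they were -0.87 ± 0.20 and -1.08 ± 0.21, with adjusted p of 0.00584 and 0.00152 (edgeR). The third Control had only 147.1, and with both muscle-marked libraries left out the adjusted p were 0.58 and 0.379 (edgeR).

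The genes that work with the mitochondrial ribosome were read from lists by function. Their counts in thyroid tissue stand beside 16.9% of all tested genes lower in Cold and 18.8% in AT lambs. Of 5 ribosomal proteins without an MRP name, DAP3, of the small subunit, was lower in thyroid tissue of Cold (log2FC -0.56 ± 0.17, SE, adjusted p = 0.035, edgeR) and AT lambs (-0.55, adjusted p = 0.0369, edgeR). PTCD3, which also belongs to the small subunit, was lower in Cold lambs (-0.87 ± 0.26, SE, adjusted p = 0.0306, edgeR). None of the 5 was called in BAT.

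Of 28 factors for ribosome assembly and mitochondrial RNA, 10 were lower in thyroid tissue of Cold lambs and 4 in AT lambs, with medians of -0.56 and -0.49. MPV17L2, which associates with the large subunit during assembly, had a log2FC of -1.75 ± 0.43 (SE, adjusted p = 0.0141, edgeR) in Cold and -1.51 (adjusted p = 0.024, edgeR) in AT lambs. It was also lower in BAT of AT lambs, by -1.13 (adjusted p = 0.0225, edgeR). TFB2M, a transcription factor of the mitochondrial genome, and LRPPRC, which stabilises its messenger RNAs, were lower in thyroid tissue of Cold lambs with log2FCs of -1.17 and -1.06. With TMM scaling MPV17L2 was called in Cold lambs (adjusted p = 0.0385) and not in AT lambs (0.0821), and TFB2M (0.102) and LRPPRC (0.139) were not called (all edgeR).

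Of 12 translation factors 3 were lower in Cold and 2 in AT lambs in thyroid tissue, and TUFM, the elongation factor that brings transfer RNAs to the ribosome, had a log2FC of -1.04 (adjusted p = 0.0251, edgeR) in Cold lambs. Of 16 mitochondrial tRNA synthetases 4 and 3 were lower, with EARS2 at -1.17 and -1.09. MARS2 was lower in AT lambs in thyroid tissue (-1.02) and in BAT (-1.49, adjusted p = 0.023, edgeR). With TMM scaling the adjusted p in thyroid tissue was 0.0957 for TUFM and 0.159 for MARS2, while EARS2 was called in both comparisons (edgeR).

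Among 10 regulators of mitochondrial biogenesis, 4 were lower in thyroid tissue of Cold and 5 in AT lambs. PPARGC1A, the coactivator that drives mitochondrial gene programmes, had log2FCs of -1.23 (adjusted p = 0.00433) and -1.20 (adjusted p = 0.00401, both edgeR). PPRC1, a related coactivator, had -1.59 in each, and the nuclear receptor ESRRA had -1.36 and -1.07. With TMM scaling ESRRA was called in Cold lambs (adjusted p = 0.0387) and not in AT lambs (0.129), and both coactivators were called in each (edgeR). In BAT PPRC1 was lower in Cold lambs, at -1.07 (adjusted p = 0.0295, edgeR).

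The members could be set beside the ribosomal proteins of the cytosol and the nuclear genes of the respiratory chain. In thyroid tissue 2 of 80 cytosolic ribosomal protein genes were lower in Cold and 2 in AT lambs (medians -0.12 and -0.13). In BAT none of 79 was called, with medians of 0.30 and 0.39. One of the reference genes, RPL19, is itself a cytosolic ribosomal protein gene. Of 58 nuclear respiratory chain genes 6 were lower in thyroid tissue of Cold lambs and 1 in AT lambs (medians -0.90 and -0.53). NDUFA11 (-1.30), NDUFB1 (-1.24) and ATP5PF (-1.12) were among the 6, and none of the 58 was called with TMM scaling. In BAT 1 of 58 was lower in each comparison, ATP5MC1 of ATP synthase, at -1.19 (adjusted p = 0.0416) and -1.10 (adjusted p = 0.0219, both edgeR). Of 12 genes of the matrix and import machinery, 5 and 4 were lower in thyroid tissue and 1 and 2 in BAT, where citrate synthase (CS) had a log2FC of -1.25 (adjusted p = 0.0373, edgeR) in Cold lambs. Genes lower made up 16.9% of all tested genes in thyroid tissue of Cold lambs and 18.8% in AT lambs. In BAT these shares were 0.872% and 6.1%.

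The counts of partner genes in thyroid tissue moved with scaling and with the muscle-marked libraries, as those of the members did. With TMM the counts lower in Cold and AT lambs were 1 and 0 of 28 assembly and RNA factors, 1 and 0 of 12 translation factors, 1 and 1 of 16 tRNA synthetases, 3 and 2 of 10 regulators, 1 and 0 of 12 matrix and import genes, and 0 of the 5 ribosomal proteins without an MRP name. Without AT 3 they were 15 and 17, 6 and 7, 5 and 5, 5 and 6, 11 and 12, and 4 and 4, in the same order. With both muscle-marked libraries left out they were 9 and 9, 3 and 2, 5 and 5, 4 and 4, 5 and 5, and 4 and 4. Of all genes, 4.99% and 4.68% were lower with TMM and 25.9% and 30% without AT 3. With both muscle-marked libraries left out 18.9% were lower in each comparison.

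For the respiratory chain genes the counts changed with AT 3 too. Without it 51 of 58 were lower in Cold and 48 in AT lambs (medians -0.91 and -1.0), against 25.9% and 30% of all genes. With TMM added 31 and 35 were lower, against 10.3% and 11.8%. With both muscle-marked libraries left out 26 and 27 were lower. Of the 80 cytosolic ribosomal protein genes 5 and 7 were lower without AT 3, and 3 and 3 with both libraries left out.

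As a share of the counts of cytosolic ribosomal proteins, which needs no scaling between libraries, the members made 4.46% and 4.80% in the BAT Controls, 2.34% to 4.04% in AT and 2.58% to 3.64% in Cold lambs. All 12 treated lambs were below both Controls. In BAT, however, the cytosolic genes had positive median log2FCs, as given above, so a lower share there does not by itself mean lower members. The third Control, at 3.46%, was inside the treated range. In thyroid tissue the share was 4.34% and 6.82% in the Controls, 3.42% to 5.11% in AT and 3.48% to 4.15% in Cold lambs. The Cold lambs were below all 3 Controls, the third being at 5.51%, while the AT lambs overlapped with them.

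As a share of nuclear respiratory chain counts the members made 52.8% and 43.9% in the thyroid Controls, 53.9% to 61.1% in Cold lambs and 32.7% to 62.4% in AT lambs, the lowest being AT 3. The Cold lambs were thus above both Controls on this measure, although the third Control was higher still, at 77.7%. In BAT the share was 31.1% and 33.3% in the Controls, 29.7% to 33.2% in Cold and 24.9% to 41.4% in AT lambs, with overlap.

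Lambs kept in the Cold were not distinguished from lambs kept at AT by any member. In BAT 0 of 74 members passed the test in either direction, against 0.0939% of all genes lower and 0.215% higher, and 0 had a raw p under 0.05. The log2FCs of Cold against AT ran from -0.43 to 0.30 with a median of -0.07, and that of all genes was -0.05. In thyroid tissue 0 members passed, as did 0.0% of all genes in either direction, and 1 had a raw p under 0.05. There the log2FCs ran from -0.63 to 0.20, with a median of -0.20 against 0.00 for all genes, and without AT 3 the median was 0.04. DESeq2 and all other alternatives gave a count of 0 lower in both tissues. The median SE of a member in this comparison was 0.17 in BAT and 0.21 in thyroid tissue. A difference must be well above its SE to pass the adjusted threshold. A count of 0 with 6 lambs a group therefore does not exclude differences in single members larger than these SEs.

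Between tissues, on a scale set over 28 libraries by the reference genes, 32 of 74 members were higher in BAT than in thyroid tissue and 7 were lower, against 47.3% of all 14403 genes higher and 23.6% lower. The member median log2FC was 0.26 and that of all genes 0.29. With TMM scaling the members' counts were 14 higher and 17 lower with a median of 0.00, against 36.1% and 36.2% of all genes. The direction for the members as a group therefore rested on the scaling.

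MRPS6 and MRPS21 were lower in BAT with either scaling. MRPS6 had 616.1, 1063.6 and 1628.2 normalized counts in BAT and 2393.9, 2883.9 and 5215.0 in thyroid tissue (n = 14 each), without overlap, and a log2FC of -1.5 ± 0.12 (SE, adjusted p = 2.19e-11, edgeR), or -1.80 with TMM. MRPS21 had 393.9, 591.1 and 836.8 in BAT and 906.1, 1159.2 and 2515.5 in thyroid tissue, also without overlap, with a log2FC of -1.19 ± 0.13 (SE, adjusted p = 3.35e-09, edgeR), or -1.47 with TMM. No member called higher in BAT was free of overlap. The largest of these differences was that of MRPL2, at 1.83 ± 0.21 (SE), named after its value was seen.

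Whether the response differed between tissues was tested as an interaction. For the Cold response 0 of 74 members differed, against 0.257% of all genes, with 5 members at a raw p under 0.05. The median of BAT minus thyroid was 0.46 for members and 0.28 for all genes, and 0.18 for members with TMM. For the AT response 0 members differed, against 2.37% of all genes, with 5 at a raw p under 0.05 and medians of 0.30 and 0.31. DESeq2 was not run on the interactions. Without thyroid AT 3, 5 members passed for the AT response, MRPL37 (1.39), MRPS28 (1.31), MRPL27 (1.23), MRPS23 (1.08) and MRPL16 (0.91), against 5.85% of all genes in that direction, which is near the members' share, and with TMM on the same libraries 0 passed. The larger number of calls in thyroid tissue was therefore not shown to be a difference between the tissues.

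Among the treated lambs the members varied together from lamb to lamb. The median Pearson's r was taken over 2701 pairs of members, across 12 lambs that share the scaling of their libraries. In BAT it was 0.44, against 0.19 for pairs of every 16th tested gene. With TMM these values were 0.32 and -0.0, and without AT 6 they were 0.33 and 0.19. In thyroid tissue it was 0.68, but without AT 3 it was 0.21, or 0.11 with TMM. Pairs of every 16th thyroid gene had 0.08, or 0.09 without AT 3 and -0.0 without AT 3 with TMM. The cytosolic ribosomal proteins kept theirs (0.69 with AT 3 and 0.64 without), and the respiratory chain genes went from 0.88 to 0.31.

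The genes whose pattern across the 12 treated lambs was most like that of a called member were found by Pearson's r of log2 normalized counts. In BAT MRPL20 was most like ALG14 (0.94) and CMPK1 (0.93), and MRPL15 most like OLFML1 (0.86) and LOC101104787 (0.84). In thyroid tissue MRPL27 was most like B4GALT7 and NOC2L (0.92 each), MRPL20 like the proteasome subunit genes PSMB5 and PSMB6 (0.97 each), and MRPL12 like NDUFAB1 and PKIA (0.98 each). Without AT 3 these thyroid values were 0.83 for both partners of MRPL27, 0.87 for both of MRPL20, and 0.84 and 0.86 for those of MRPL12.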

How the data were processed

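Perirenal BAT and thyroid tissue of the same 15 lambs gave 30 libraries of poly(A) RNA, read in pairs on a BGISEQ-500. Per the submitters' processing notes the authors used FastQC 0.11.9, Trimmomatic 0.39, STAR 2.7.7a and featureCounts of Subread 2.0.0, and they deposited raw read counts per gene on the Oar_rambouillet_v1.0 annotation. Reads mapping to several places were counted, strand use was not given in the sources used here, and normalized counts are these counts divided by a size factor. No sequence or coordinate is printed, as the gene table used here (ARS-UI_Ramb_v3.0) is of another build.

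The main test was the quasi-likelihood test of edgeR 4.0.16 in R 4.3.3, fitted on all genes of a tissue that had 10 or more reads in 10 or more libraries, with offsets from the reference genes ACTB, RPL19 and HUWE1 that the study used and 3 groups sharing 1 estimate of the spread. P-values are 2-sided and adjusted over all tested genes, and a gene was called at 0.05. The scripts were tested on simulated data. Depth ran from 25062784 to 37025998 counts per library, and the number of lambs, with 2 Controls in the main fit, limited the precision. The alternatives were TMM and median-of-ratios scaling, DESeq2 1.42.0, all 3 Controls, 2 groups only and a fold of 2. Others were no filter, the filterByExpr filter of edgeR, an RNA integrity covariate and leaving out each library. Leaving out AT 3 together with another choice or in the fits over both tissues, leaving out the muscle-marked libraries, and the block with TMM were added after seeing the data. Both tissues come from the same lambs by the animal number in the labels; deviations from the group means correlated above 0.1 in 11 of 12 treated lambs (highest 0.37).

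The members and lists were chosen with earlier results of these data known. Named were the 3 called members with the largest log2FC each way whose groups did not overlap, the 3 highest and lowest per kb, MRPL12, MRPS36 and the MRPS18 genes, the 2 genes most like each of the 3 called members with the lowest adjusted p, and from other lists up to 3 called genes with a log2FC of at least 1. Correlations used a pseudocount of 1. A marker gene of the follicle cell list is not reported here and was left out of its sum.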

Additional observations from a re-analysis of the deposited data

Results flagged for a closer look

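In groups of 6 lambs, a value was singled out where the gap to its nearest neighbour was, relative to the range of the group, above the 95% critical value of Dixon's test. That held in 20 of 104 groups tested, where chance gives about 1 in 20, and the groups share libraries. All 20 came from 2 libraries.

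Thyroid AT 3 was far above the other 5 AT lambs in normalized counts for 14 members: MRPL14 (3818.8 against 1134.5 to 1507.2), MRPL23 (2854.3 against 1025.5 to 1508.7), MRPS36 (2236.5 against 323.2 to 470.4), MRPL15 (2123.2 against 487.1 to 867.7), MRPL12 (1888.5 against 759.6 to 971.4), MRPL51 (1463.6 against 431.3 to 612.3), MRPL20 (1154.7 against 524.5 to 694.1), MRPS31 (946.9 against 234.1 to 369.6), MRPS30 (741.9 against 231.4 to 330.6), MRPS25 (725.7 against 150.7 to 302.5), MRPL1 (714.9 against 195.4 to 268.5), MRPS18C (671.8 against 264.9 to 362.8), MRPL44 (605.7 against 190.9 to 268.3) and MRPS18B (469.4 against 184.6 to 227.8). The members' sum in AT 3 was 104067.8, against 55831.1 to 63896.4. Their share of nuclear respiratory chain counts was low there, at 32.7% against 53.8% to 62.4%.

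BAT AT 6 was far below the other 5 AT lambs in normalized counts for MRPL41 (273.9 against 518.7 to 665.1), MRPL1 (157.3 against 247.5 to 276.4) and MRPS25 (127.5 against 245.5 to 299.9). The members' sum in AT 6 was 21045.8, against 31091.4 to 35000.2. Per 10000 counts outside the dominant pair the members took 21.23 in AT 6 and 21.26 in AT 4.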

How the results depend on the processing

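The values here are counts of members lower, unless another measure is named. For Cold against Control in BAT (1) the count was 0 with TMM, median-of-ratios, no filter or a fold of 2, 2 with the 2 groups alone (all genes 2.28%), 4 with DESeq2 or all 3 Controls, 10 with all 3 Controls and TMM (6.72%), and 0 to 5 leaving out 1 library. For AT in BAT (2) it was 1 with TMM, 6 with all 3 Controls, 21 with these and TMM (11.2%), 0 with the 2 groups alone or a fold of 2, and 2 to 9 leaving out 1 library. For Cold in thyroid tissue (18) it was 4 with TMM or median-of-ratios, 9 with all 3 Controls and TMM (7.62%), 51 with the 2 groups alone (22.5%), 8 at a fold of 2, and 8 to 56 leaving out 1 library. For AT there (12) it was 1 with TMM, with median-of-ratios, with all 3 Controls and TMM or with the 2 groups alone, 5 with all 3 Controls, 3 at a fold of 2, and 3 to 58 leaving out 1 library. With thyroid Control 3 replaced by the third Control the member medians in Cold and AT lambs were -0.33 and -0.09, against -0.72 and -0.46 before. Without thyroid AT 3 the Cold and AT counts were 33 and 35 with all 3 Controls, and the AT count was 25 with TMM. With both muscle-marked libraries left out each count was 30. With an RNA integrity covariate the Cold and AT counts in thyroid tissue were 13 and 8, against 14% and 13.9% of all genes. Where the number of samples or the threshold did not change, the cause of these differences was not tested. Counts of Cold against AT stayed at 0 in all 24 alternatives in BAT and 28 in thyroid tissue. The AT response differed between tissues for 5 members without thyroid AT 3 and for 0 in the other 5 alternatives, and the Cold response for 0 in all 6. Members higher in BAT than in thyroid tissue (32) numbered 14 with TMM, 35 with the lamb as replicate block and 18 with block and TMM; the block changed no other call count of members.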
